A study of Mus musculus with 35 samples.

Results

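Chromatin accessibility was compared between E10.5 pre-HSC II and E10.5 pre-HSC I, the 2 populations closest to the blood stem cell in an ATAC-seq series of the mouse endothelial-to-hematopoietic transition. They make up 8 of the 35 libraries of the series, 4 libraries each, and every peak of the count table entered the comparison. Pre-HSC II cells were sampled at E10.5, embryonic day as labelled, from tissue labelled AGM+VU of a line labelled 23GFP transgenic, and pre-HSC I cells came from the same day, tissue label and line. Each library was a pool of 1500 sorted cells amplified with 13 PCR cycles. The libraries of the other 7 populations carry the same transgene and serve here as libraries outside the comparison. They are E9.5 pro-HSC/HPC (3 libraries) and E8.5 HE, E8.5 EC, E9.5 HE, E9.5 EC, E10.5 HE and E10.5 EC (4 libraries each). Here HE is hemogenic endothelium, EC endothelial cells and HPC hematopoietic progenitor cells. The markers used in the sort and whether pools came from separate litters are not given in the labels, so the spread behind each p-value is that between these pools and may be partly technical.

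In the mid-gestation embryo some endothelial cells of the large arteries become hemogenic endothelium, lose their endothelial character and form clusters of round blood cells inside the vessel. Pre-HSCs are cells of these clusters that cannot yet engraft an adult host directly but can mature into stem cells. In the mouse the type I cell still lacks the pan-leukocyte surface protein CD45 and the type II cell, which comes after it, carries it. ATAC-seq uses a transposase that inserts adapters into open chromatin, so that a region's read count rises with its accessibility. Open regions away from gene starts often are enhancers, which tend to open and close as a cell changes its identity.

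The table gives raw read counts in 76018 peaks of mouse build mm9, and each peak is called by the position that the table gives it. The sources used here do not say whether positions count from 0 or 1. No mm9 annotation was used, so that no gene is assigned to a peak and the population labels were not checked against marker genes. Pre-HSC II libraries 2 to 4 held 668956, 701221 and 1241216 counts in peaks and library 1 held fewer, against 1632752 to 2102252 in pre-HSC I. A single count was worth 2.19 CPM (counts relative to library size) in the shallowest pre-HSC II library, number 1, and 0.806 CPM in the deepest, number 4. The difference between pre-HSC I libraries 2 and 3 was smaller than sampling noise (0.461 chi-square units per degree of freedom, where other pairs within the 2 groups had 3.33 to 4.39). Their mean was counted as 1 sample, called replicate 2. The comparison thus rests on 4 pre-HSC II and 3 pre-HSC I samples.

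Pre-HSC II chromatin differed from pre-HSC I chromatin at 732 of the 30222 peaks with enough counts to test, or 2.42% (edgeR quasi-likelihood test, Benjamini-Hochberg adjusted p under 0.05). Of these, 486 peaks (1.61%) were higher and 246 (0.814%) lower in pre-HSC II, a balance that turned in the fit of all 34 samples with TMM factors given below. The changes were large, with a median log2 fold change of 2.54 among the higher peaks and -2.38 among the lower ones, against 0.024 over all peaks tested. Levels of the 2 groups did not overlap in 480 of the 486 higher and 245 of the 246 lower peaks, while 16.8% of all peaks tested had no overlap. The peaks were called from these same levels, so the large changes and the lack of overlap follow in part from the call. The counts depend on single libraries. They came to 310 calls without pre-HSC II replicate 1, 165 without pre-HSC II replicate 2, 76 without pre-HSC I replicate 1 and 136 without pre-HSC I replicate 4, and the 820 higher peaks without pre-HSC I replicate 2 also lay over 1.5 times from the 486.

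The 15 leading peaks of each direction were taken from calls without overlap between the groups. The lack of overlap at them is thus set by the choice. Of the 5 leading higher peaks, those on chromosome 1 had little signal in pre-HSC I. The one with the smallest adjusted p, chr1:175817338-175817842, had 84.7, 60.9, 62.5 and 44.3 CPM in pre-HSC II libraries 1 to 4 and 5.39, 5.90 and 2.89 CPM in pre-HSC I replicates 1, 2 and 4. The log2 fold change was 3.67 (SE 0.46, adjusted p = 0.00114, edgeR). A second peak nearby on chromosome 1, chr1:175934645-175935168, had 92.6, 54.3, 59.3 and 36.3 CPM in pre-HSC II against 6.14, 5.89 and 4.33 CPM in pre-HSC I. Its log2 fold change was 3.41 (SE 0.47, adjusted p = 0.00116, edgeR).

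The other 3 leading higher peaks were already open in pre-HSC I. At chr4:145174620-145176479 pre-HSC II libraries had 287, 188, 192 and 109 CPM and pre-HSC I samples 31.4, 48.9 and 47.5 CPM. The log2 fold change there was 2.16 (SE 0.29, adjusted p = 0.00116, edgeR). At chr7:95425467-95427797, the widest of the 15 leading higher peaks, the levels were 245, 178, 141 and 110 CPM in pre-HSC II and 31.6, 46.0 and 40.5 CPM in pre-HSC I, a log2 fold change of 2.06 (SE 0.28). The highest levels among the 15 were at chr5:60433955-60434314, with 1249, 853, 692 and 550 CPM in pre-HSC II against 244, 219 and 358 CPM in pre-HSC I and a log2 fold change of 1.61 (SE 0.22). This peak is only 359 bases wide, and the groups were closer there than at the other 4 leading peaks.

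The 15 leading higher peaks spanned fold changes of 2.79 to 17.6, and of 2.34 to 13.0 without pre-HSC II replicate 1, apart from chr17:72529060-72529491. That peak had 50.7, 13.7, 14.7 and 19.9 CPM in pre-HSC II and no count in any pre-HSC I sample. It was at least 28.9-fold higher in pre-HSC II, taking 3 counts over the pre-HSC I group as the limit, and at least 23.0-fold without pre-HSC II replicate 1. Such limits cover counting error only and leave out the spread between pools. PCR copies carry no molecular identifiers, so even counting error may be covered only in part. In all, 4 higher and 2 lower called peaks had no count in one group. The 17.6-fold change was at chr16:84967263-84967688, where pre-HSC II library 1 had 116 CPM and the other 3 libraries 30.9, 36.5 and 33.5 CPM, against 2.48, 2.98 and 3.02 CPM in pre-HSC I. Without pre-HSC II replicate 1 it was 10.9-fold (log2 fold change 3.44), below chr6:108147064-108147544 at 3.70 and chr1:175817338-175817842 at 3.46 on the log2 scale.

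In pre-HSC II the level of the higher peaks moved with the depth of the library. Their median level was 49.5, 39.6, 34.2 and 27.5 CPM in pre-HSC II libraries 1 to 4, whose total counts increase in that order, against 3.58, 8.94 and 4.52 CPM in pre-HSC I replicates 1, 2 and 4. Over all peaks tested the same medians ran from 17.6 to 19.2 CPM. The shallowest library, number 1, was the highest of the 4 at 265 of the 486 higher peaks (54.5%) and at 30.4% of all peaks tested. The deepest, number 4, was the lowest at 239 of the higher peaks (49.2%) and at 20.3% of all. The part that depth plays in these calls was not tested by these counts. With every sample thinned to the depth of pre-HSC II library 1, 288 higher and 201 lower peaks were called among the 13039 then kept by the count filter. Of the 732 reported calls 457 were among those peaks, and 216 higher and 109 lower ones of them were called again.

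**Figure D1:**
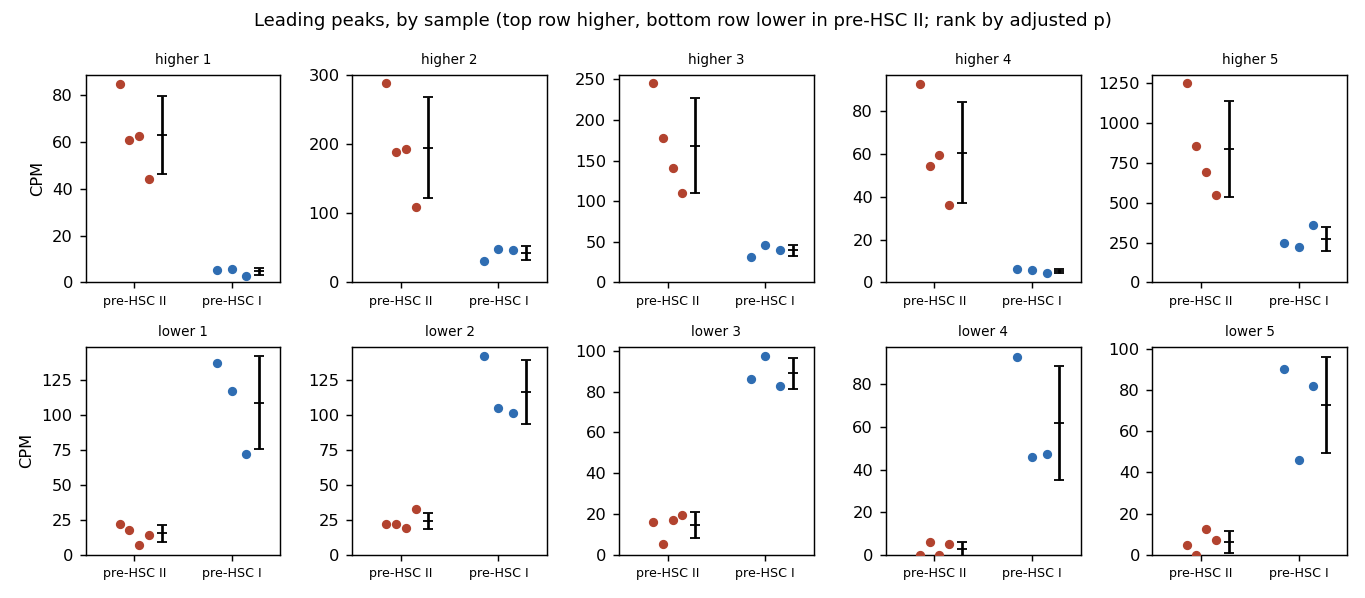
Level (CPM, from 0) of the 5 leading higher peaks (top row) and the 5 leading lower peaks (bottom row) in pre-HSC II libraries 1 to 4 (red, left in each panel) and pre-HSC I replicates 1, 2 and 4 (blue, right), with the mean and SD as bars beside the points. The peaks were chosen to have no overlap between the groups. Pre-HSC II library 1, the leftmost red point, is the highest of its group in each panel of the top row.

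The lower peaks with the smallest adjusted p were broad regions that were well open in pre-HSC I and lost most of their signal in pre-HSC II. The leading one, chr17:10582608-10584086, had 21.8, 18, 6.84 and 14.4 CPM in pre-HSC II libraries 1 to 4 and 137, 117 and 72.0 CPM in pre-HSC I replicates 1, 2 and 4. The log2 fold change was -2.87 (SE 0.37, adjusted p = 0.00114, edgeR). At chr3:115411497-115413161 the levels were 16.1, 5.34, 16.9 and 19.7 CPM in pre-HSC II and 86.4, 97.4 and 83.0 CPM in pre-HSC I, with log2 fold change -2.56 (SE 0.37, edgeR adjusted p = 0.00179). The pre-HSC I samples agreed closely there.

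A pair of the 5 leading lower peaks lay 191187 bases apart on chromosome 8. At chr8:8993780-8995516 pre-HSC II libraries had 22.3, 22.4, 19.1 and 32.6 CPM and pre-HSC I samples 143, 105 and 101 CPM, with log2 fold change -2.21 (SE 0.30, edgeR adjusted p = 0.00116). At chr8:8801089-8802593 they had 4.91, 0, 12.7 and 7.04 CPM in pre-HSC II against 90.2, 46.0 and 81.7 CPM in pre-HSC I, with log2 fold change -3.48 (SE 0.54, edgeR adjusted p = 0.00317). At the second peak 1 pre-HSC II library had no count. Of the 5 tested peaks between them 1 was called lower and 0 higher. It was chr8:8830381-8831702, singled out after its values were seen, with 4.75, 6.16, 6.09 and 6.21 CPM in pre-HSC II against 24.5, 24.6 and 28.1 CPM in pre-HSC I (log2 fold change -2.11, SE 0.56, edgeR adjusted p = 0.0479).

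The peak chr5:135015442-135016464 was almost without signal in pre-HSC II, with 0, 6.08, 0 and 5.26 CPM, against 92.8, 45.7 and 47.4 CPM in pre-HSC I. Its log2 fold change was -4.17 (SE 0.63, adjusted p = 0.00260, edgeR), from 10 counts in pre-HSC II and 238 in pre-HSC I. The 15 leading lower peaks spanned 3.90-fold to 18.9-fold lower levels in pre-HSC II. Pre-HSC II library 4 was the highest of its group at 8 of these 15 peaks, and library 1 at 4 of them.

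Higher and lower peaks differed in shape. The higher peaks had a median width of 610.5 bases (quartiles 431.25 and 874.75) and the lower ones of 1179 bases (quartiles 952.5 and 1496.5), against 908 bases over all peaks tested. Only 10 of the 486 higher peaks (2.06%) were at least 2000 bases wide, compared with 18 of the 246 lower ones (7.32%) and 7.29% of all peaks tested. Both lists had about the same height, with a median over peaks of 24.9 CPM for the higher and 23.6 CPM for the lower ones. These are descriptions of the called peaks and carry no test.

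The calls were not drawn evenly from peaks of all heights. In the lowest decile of peaks by mean height 14 were higher and 2 lower in pre-HSC II, in decile 7 there were 83 higher and 46 lower ones, and in the highest decile 41 were higher and 15 lower. Scaling mattered for the balance between directions. With 1 scaling factor per library (TMM) the median log2 fold change went down with height, at 0.43 in the lowest decile and -0.33 in the highest, whereas with the loess offsets used here it was 0.30 in the lowest decile and between -0.02 and 0.04 in the other 9. Scaling by total counts gave 751 higher and 230 lower peaks, so that 76.6% of calls were higher against 66.4% here. In a fit of all 34 samples with TMM factors the balance turned, with 564 higher and 2747 lower peaks (17% higher), while the fit of all 34 samples with loess offsets gave 1370 higher and 914 lower ones.

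**Figure D2:**
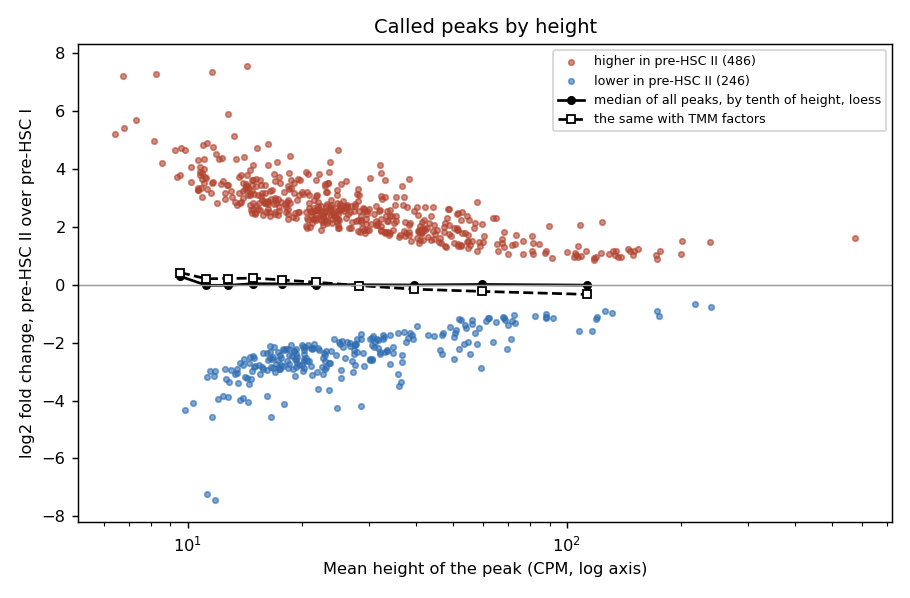
Log2 fold change of each called peak (pre-HSC II over pre-HSC I) against its mean height in CPM on a log axis, with the 486 higher peaks in red and the 246 lower peaks in blue. Black lines give the median over all tested peaks in each decile of height: flat after the lowest decile with loess offsets (filled circles) and sloping from 0.43 to -0.33 with TMM factors (open squares).

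By chromosome, the share of tested peaks called higher was 3.18% on chromosome 1 (66 of 2077 peaks) and 0.132% on chromosome 19 (1 of 759), against 1.61% over the genome. Among the 15 leading higher peaks 3 were on chromosome 1. Within 50000 bases, 425 of the higher and 224 of the lower peaks had no other call of their direction, and 26 higher and 11 lower groups held a pair. The same share over all tested peaks was not computed. Calls further apart were not grouped. An example seen afterwards is a row of higher peaks from chr5:110119123-110120432 to chr5:110523107-110524347, with several gaps over that limit. The tested peaks in that stretch that were not called were not counted. Under the limit of 50000 bases, groups of 3 were found in 3 places, all higher in pre-HSC II. In each, every tested peak of the span was called.

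The tightest of these groups lay at chr10:129751118-129760166 and held 3 peaks in 9048 bases. Its most changed peak, chr10:129755914-129756278, had 25.7, 21.2, 26.3 and 14.8 CPM in pre-HSC II and 0.899, 3.09 and 2.36 CPM in pre-HSC I, with log2 fold change 3.23 (SE 0.69, edgeR adjusted p = 0.0184). At the outer peaks, chr10:129751118-129751779 and chr10:129759487-129760166, the log2 fold changes were 3.20 (SE 0.73) and 2.37 (SE 0.57). Pre-HSC II libraries 1 and 2 had the highest levels at both outer peaks and library 3 the lowest, while the middle peak was lowest in library 4.

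The other groups were on chromosome 2. At chr2:36072008-36128407 the first peak, chr2:36072008-36073237, had 117, 46.5, 65.0 and 11.6 CPM in pre-HSC II against 5.99, 22.2 and 9.28 CPM in pre-HSC I, and here the groups overlapped (adjusted p = 0.0493, edgeR). The last and most changed peak of that group, chr2:36127741-36128407, had 49.5, 21.5, 18.8 and 8.57 CPM in pre-HSC II against 0, 1.84 and 1.54 CPM in pre-HSC I, without overlap and with log2 fold change 4.15 (SE 0.85, edgeR adjusted p = 0.0151). At chr2:145014432-145060117 the log2 fold change was largest at the first peak, at 2.78 (SE 0.70), and smallest at the middle one. None of the 9 peaks in these groups kept its call under every alternative setting in which it was tested. All of them lost it without pre-HSC I replicate 1, where only 55 of all 486 higher peaks were called again. The share of all calls kept under every alternative was not computed.

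The called peaks were then followed in the other populations of the series, whose libraries take no part in the comparison. Levels for this come from 1 loess scaling of all 34 samples and are the median over peaks of the mean CPM per population. The 486 higher peaks had a median of 37.2 CPM in pre-HSC II and 4.6 CPM in pre-HSC I. In the other E10.5 populations they were lower still, with 2.54 CPM in HE and 1.67 CPM in EC, and at E9.5 they had 6.76 CPM in pro-HSC/HPC, 2.03 CPM in HE and 1.67 CPM in EC. The 246 lower peaks had 7.72 CPM in pre-HSC II and 32.1 CPM in pre-HSC I, beside 44.1 CPM in E10.5 HE and 42.2 CPM in E10.5 EC. At E9.5 they had 26.9 CPM in pro-HSC/HPC, 50.3 CPM in HE and 43.8 CPM in EC. Outside pre-HSC II the lower peaks lay above the median of all tested peaks and the higher peaks below it. That median was 12.8 to 14.8 CPM in these populations. The count filter and the calls used only pre-HSC II and pre-HSC I. The place of both lists in pre-HSC I thus follows in part from that choice. How far this holds in the other populations was not tested.

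**Figure D3:**
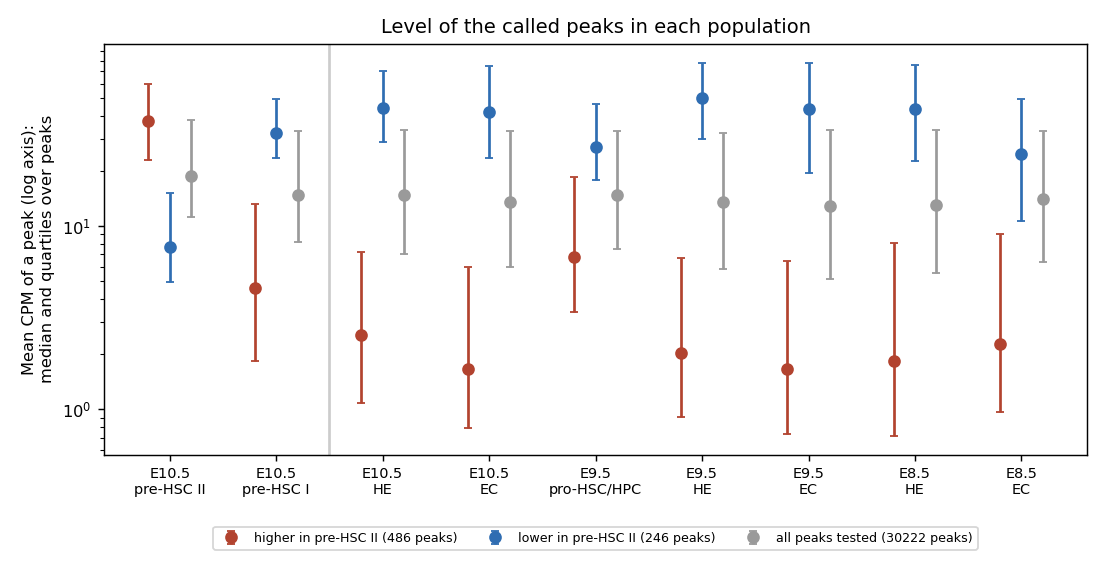
Mean CPM per peak (log axis) in each population, as the median and quartiles over the 486 higher peaks (red), the 246 lower peaks (blue) and all 30222 tested peaks (grey), with pre-HSC II and pre-HSC I left of the grey line. The higher peaks reach 37.2 CPM in pre-HSC II and are next highest, at 6.76 CPM, in E9.5 pro-HSC/HPC; the lower peaks fall under all tested peaks in pre-HSC II alone among the 9 populations.

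The E9.5 pro-HSC/HPC population differed from E9.5 HE in the same direction at many of these peaks, and this comparison shares no library with pre-HSC II or pre-HSC I. It was made in the fit of all 34 samples, so its scaling and its estimate of spread also rest on the pre-HSC samples. The same holds for E10.5 HE against E10.5 EC below. Of the 486 higher peaks 89 (18.3%) were also higher in pro-HSC/HPC than in E9.5 HE and 0 were lower (edgeR, adjusted p under 0.05 over 67131 peaks), where 0.666% of all peaks tested were higher and 0.949% lower. Of the 246 lower peaks 73 (29.7%) were also lower in pro-HSC/HPC and 0 were higher. Among the 30222 peaks with enough counts for the pre-HSC comparison, 1.41% were called in each direction. The median log2 fold change between pro-HSC/HPC and E9.5 HE was 1.46 over the higher peaks and -0.86 over the lower peaks, against 0.17 over those 30222 peaks, and it was positive at 94.9% of the higher and 6.1% of the lower ones. With TMM factors 90 of the higher and 73 of the lower peaks were called in those directions.

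Among the leading peaks, some were called in this comparison and some were not. At chr8:8993780-8995516 the mean level was 74.7 ± 24.7 CPM in pro-HSC/HPC (SD, n = 3) and 193 ± 26.7 CPM (SD, n = 4) in E9.5 HE, with an edgeR log2 fold change of -1.36 (SE 0.20, adjusted p = 4.27e-05). The other leading peak on chromosome 8, chr8:8801089-8802593, was also lower, at 38.3 ± 9.90 CPM in pro-HSC/HPC against 120 ± 17.9 CPM in E9.5 HE (n = 3 and 4, SD, edgeR adjusted p = 6.92e-05). The called peak between them, chr8:8830381-8831702, had 31.4 ± 13.1 CPM in pro-HSC/HPC and 42.8 ± 10.4 CPM in E9.5 HE and was not called (log2 fold change -0.45, SE 0.37, edgeR adjusted p = 0.633). The leading lower peak, chr17:10582608-10584086, had 114 ± 14.0 CPM in pro-HSC/HPC and 159 ± 22.7 CPM in E9.5 HE and was not called either (log2 fold change -0.48, SE 0.20, edgeR adjusted p = 0.228). In all, 10 of the 15 leading lower peaks were called lower in pro-HSC/HPC and 3 of the 15 leading higher peaks were called higher. Among the 30222 peaks tested between pre-HSC II and pre-HSC I, 1.41% were called in each direction. The log2 fold change was negative at 14 of the leading lower peaks (median -0.786) and positive at 13 of the leading higher ones (median 1.73). Why fewer of the higher ones were called was not tested.

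The 3 leading higher peaks called in pro-HSC/HPC were chr4:145174620-145176479, chr3:28457226-28457859 and chr13:117999918-118000667. The first had 49.4 ± 12.7 CPM in pro-HSC/HPC and 18.1 ± 5.91 CPM in E9.5 HE (n = 3 and 4, SD, edgeR adjusted p = 0.00891). The second had 12.8 ± 3.67 CPM in pro-HSC/HPC and 1.22 ± 1.04 CPM in E9.5 HE, a log2 fold change of 3.25 (SE 0.76, edgeR adjusted p = 0.0115). In E8.5 EC these 3 peaks had 51.0 ± 5.87, 2.68 ± 4.44 and 2.18 ± 1.77 CPM (n = 4, SD). The level of the first was thus not particular to pro-HSC/HPC. Both chromosome 1 peaks among the first 5 averaged at most 2.38 CPM in the E9.5 populations, E10.5 HE and E10.5 EC. At chr1:175817338-175817842 the level was 2.38 ± 0.762 CPM in pro-HSC/HPC and 0.186 ± 0.372 CPM in E9.5 HE, with a log2 fold change of 2.87 that was not called (SE 0.90, edgeR adjusted p = 0.0837). Whether the fold differs between these peaks was not tested.

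The comparison of E10.5 HE against E10.5 EC gave the called peaks no common direction. Of the 486 higher peaks 12 (2.47%) were higher in HE and 7 (1.44%) lower, relative to EC, where 1.01% of all peaks tested were higher and 1.32% lower. Among the 30222 peaks with enough counts for the pre-HSC comparison 1.66% were higher and 1.92% lower, so these shares lie near the background, and with TMM factors the counts turned to 8 higher and 9 lower. Of the 246 lower peaks 40 (16.3%) were higher in HE and 16 (6.5%) were lower (30 and 18 with TMM factors). Peaks lower in pre-HSC II were thus called in both directions between HE and EC. The median log2 fold change over the lower peaks was 0.04 with loess offsets and -0.05 with TMM factors, so its sign rests on the scaling. Of the 15 leading lower peaks 1 was called higher and 1 lower in HE against EC, and of the 15 leading higher peaks 0 were called. These were chr18:60820717-60821920, higher in HE (log2 fold change 1.60, SE 0.26, edgeR adjusted p = 0.000151), and chr8:106618748-106621517, lower in HE (log2 fold change -0.78, SE 0.19, edgeR adjusted p = 0.0132). Whether this comparison and the E9.5 comparison differ was not tested.

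**Figure D4:**
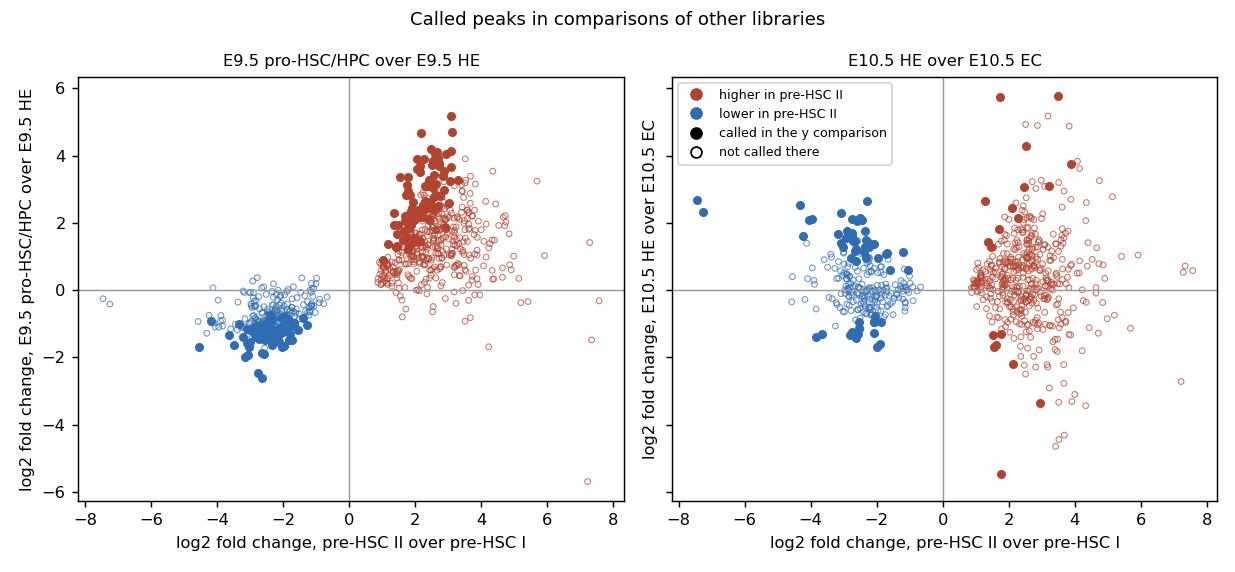
Log2 fold change of each called peak between E9.5 pro-HSC/HPC and E9.5 HE (left panel) and between E10.5 HE and E10.5 EC (right panel), both on the vertical axis, against its log2 fold change between pre-HSC II and pre-HSC I. Filled points are called in the comparison on the vertical axis; on the left 89 higher (red) peaks lie above 0 and 73 lower (blue) peaks below it, and on the right filled points lie on both sides.

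The calls changed with the setting. Of the 486 higher and 246 lower peaks, 426 and 210 were also called with TMM factors, 456 and 246 with DESeq2, and 408 and 152 with the replicate number as a block. The fit of all 34 samples called 413 and 244 of them with loess offsets and 289 and 246 with TMM factors. Without pre-HSC II replicates 1 and 2 in turn, 166 and 107, and 116 and 42, were called again. Without pre-HSC I replicates 1 and 4 in turn, 55 and 17, and 74 and 60, were called again. The leading peaks were chosen for the smallest adjusted p. Of them, 12 of the 15 higher and 13 of the 15 lower kept their call under every alternative in which they were tested. The exceptions were chr5:60433955-60434314, chr3:133002177-133002948 and chr11:90399883-90400453, not called in the fit of all 34 samples with TMM factors, and chr8:34249186-34249870 and chr4:86531417-86533210, not called without pre-HSC I replicate 1.

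**Figure D5:**
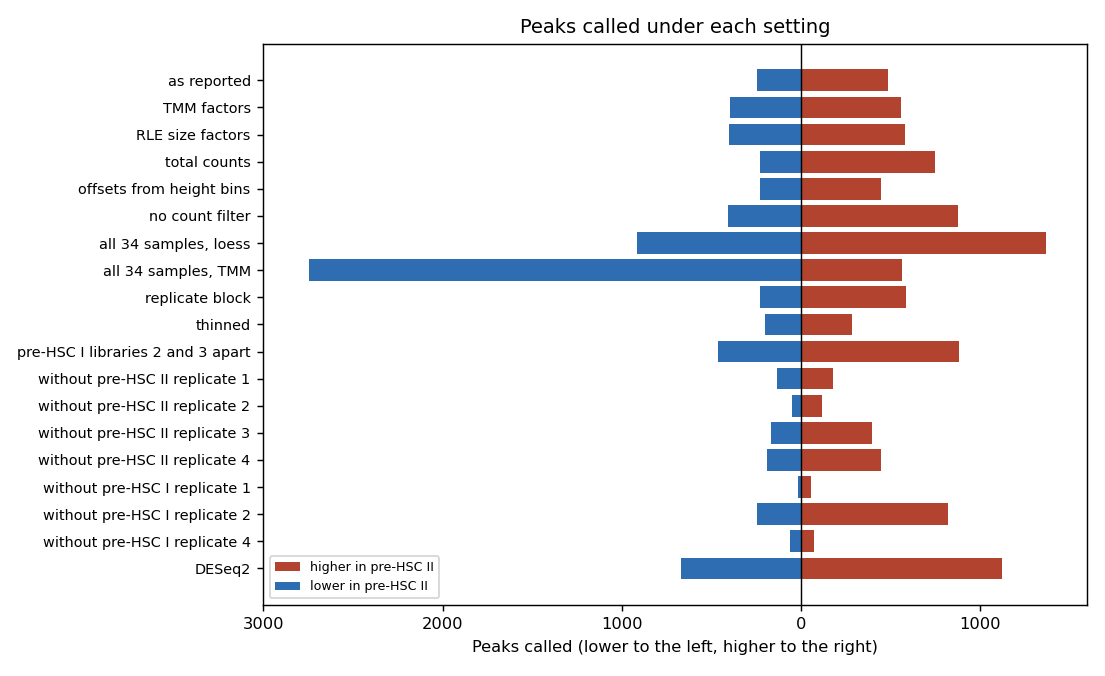
Number of peaks called higher (red, to the right) and lower (blue, to the left) in pre-HSC II under the reported fit and each alternative, on a linear axis from 0. The counts are lowest without pre-HSC I replicate 1 (59 higher and 17 lower), and the fit of all 34 samples with TMM factors is the setting with the most lower peaks (2747).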

How the data were processed

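ATAC-seq libraries were made from pools of sorted cells. A single table of the raw count of reads per peak, not normalized, was deposited by the authors for 35 libraries. Per the submitters' processing notes the build was mm9 and DiffBind 1.14.6, MACS2 2.0.1, bedtools 2.17.0, Bowtie 1.0.0, Trim Galore 0.3.1, deepTools and SAMtools were used; their roles, read filters and any shift to the transposase's position are not given in the sources used here.

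Groups were taken from sample titles. Pre-HSC I libraries 2 and 3 were averaged and rounded to whole counts, leaving 7 samples. Peaks were filtered with filterByExpr by group (minimum count 10), which removed 45796. Offsets came from cyclic loess (limma 3.58.1, span 0.3) on log2 CPM with a prior count of 2. The test was edgeR 4.0.16 (glmQLFit, glmQLFTest, two-sided) on the 2 groups, with 5 residual degrees of freedom, a common dispersion of 0.15 and Benjamini-Hochberg adjustment. The SE is the log2 fold change over the square root of F. CPM are counts divided by the loess-scaled library size. The contrasts of other populations came from 1 fit of 34 samples. Scripts were tested on simulated data. Work was done in Python 3.11.15 (pandas 2.3.3, numpy 2.4.6, matplotlib 3.10.9) and R 4.3.3, with DESeq2 1.42.0 as an alternative.

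Named peaks are, per direction, the 15 with the smallest adjusted p among calls of log2 fold change 1 or more in size without overlap between groups, the first 5 in full, and the peaks of groups of at least 3 calls. The peaks, lists and rules were chosen with earlier results of these data known. Gene lists and marker genes named in the plan were not analysed here, because no mm9 annotation was used, and no peak sequence is shown for the same reason. Alternatives were other scalings, DESeq2, no filter, all 34 samples, a replicate block, thinning, libraries 2 and 3 apart, and leaving out each sample.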

Additional observations from a re-analysis of the deposited data

Results flagged for a closer look

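Among 39 peaks looked at by name, 4 had a pre-HSC II library far from the other 3 of its group; about 1 in 20 groups is expected to be marked in this way by chance. Pre-HSC II library 1 had 115.6 CPM at chr16:84967263-84967688, where the others had 30.9 to 36.48 CPM. It had 50.68 CPM at chr17:72529060-72529491, where the others had 13.71 to 19.91 CPM, and 19.99 CPM at chr10:120901700-120902703, a peak lower in pre-HSC II, where the others had 3.192 to 5.272 CPM. Without that library all 3 peaks kept their call, but the fold at chr16:84967263-84967688 was 10.9 against 17.6 with it, and at chr17:72529060-72529491 the lower bound was 23.0-fold against 28.9-fold and the mean of the other libraries 16.1 CPM against 24.8 CPM over all 4. At chr10:120901700-120902703 the log2 fold change was -4.05 without it and -3.35 with it. Pre-HSC II library 2 had 113.5 CPM at chr2:145050771-145052454, where the others had 61.35 to 65.25 CPM, and without it the adjusted p of that peak was 0.1226 (edgeR).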

How the results depend on the processing

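The reported fit called 732 peaks, 486 higher and 246 lower in pre-HSC II. The total was 1284 (879 higher and 405 lower) with no count filter, 2284 (1370 and 914) in the fit of all 34 samples with loess offsets and 3311 (564 and 2747) in that with TMM factors. It was 1345 (881 and 464) with pre-HSC I libraries 2 and 3 apart and 1791 (1123 and 668) with DESeq2. Total counts as scaling gave 751 higher peaks, TMM factors 394 lower and RLE size factors 400 lower. Thinning left 288 higher peaks among the 13039 then tested. Why the counts moved was not tested for any setting. Leaving out 1 sample at a time gave 76 to 1062 calls, 59 to 820 higher and 17 to 242 lower. Offsets from height bins gave 675 calls.

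With the replicate number as a block (replicate block) 812 peaks were called, 585 higher and 227 lower, among them 408 of the 486 higher and 152 of the 246 lower reported calls. Deviations of same-numbered samples from their group means correlated at 0.0182, 0.151 and 0.0774, and those of samples with different numbers at -0.189 to 0.122. Since the same-numbered values were not all above 0.1, the numbers were not taken to pair the samples. These values do not settle whether the samples were paired.

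The pre-HSC II libraries are shallow: 3 counts were 6.57 CPM in library 1 and 2.42 CPM in library 4. The count filter left out 45796 peaks, most of which were tested in the fit with no count filter.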
